A study of Mus musculus with 32 samples.

Results

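The proximal part of mouse chromosome 17 from 10 Mb to 30 Mb, which holds the *Prdm9* gene, was described from 9 deposited lists of ChIP-seq intervals on the build mm9. Its members are the intervals whose midpoint falls between those bounds, 1196 of the 4978 intervals that the 9 lists place on chromosome 17. They comprise 112 of 10121 RJ2 PRDM9 peaks, 28 of 2601 B6 PRDM9 peaks, 6 of 1070 *Spo11* KO PRDM9 peaks and 12 of 2286 *Prdm9* KO peaks. They also comprise 108 of 15195 RJ2 and 103 of 14774 B6 DMC1 peaks, and 217 of 24185 RJ2-specific, 144 of 10835 B6-specific and 466 of 41014 common H3K4me3 intervals. The region was chosen by its many RJ2 PRDM9 peaks without marks, so the numbers, classes and widths of those peaks are given as a description and without a test. The RJ2 DMC1, RJ2-specific H3K4me3 and common H3K4me3 lists take part in defining these classes, so the tests on them are not wholly independent of that choice. The common H3K4me3 list also draws on B6. The methods describe removing RJ2 PRDM9 peaks shared with B6 or seen in *Prdm9* KO, so these data shaped the choice in part. The B6 DMC1, B6-specific H3K4me3 and *Spo11* KO lists do not enter the RJ2 classes directly.

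RJ2 is the strain B10.MOLSGR(A)-(D17Mit58-D17Jcs11)/Bdm, whose name marks a segment of chromosome 17 from MOLSGR on a C57BL/10 background, and which carries *Prdm9* Cst. B6 is C57BL/6JOlaHsd, which carries *Prdm9* Dom2. The knockouts are B6;129P2-Prdm9tm1Ymat/J, without PRDM9, and Spo11tm1M, without the enzyme that makes meiotic DNA breaks. PRDM9 was precipitated from whole testis at 13 days post-partum, in 2 replicates for RJ2, *Spo11* KO and B6 and in 1 library for *Prdm9* KO. DMC1 was precipitated from whole testis at 5 weeks in 2 replicates per strain, and H3K4me3 from elutriated pachytene cells of adult testes in 1 library per strain. Every list is pooled over its replicates and holds positions only, so peaks and not mice are the units, the depth is unknown from the lists, and intervals and p-values cover counting error only. Here the *Prdm9* allele of RJ2 and the donor segment that carries it lie on the chromosome under study, and their effects cannot be told apart. The ends of that segment were not used here.

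PRDM9 binds DNA through an array of zinc fingers that differs between its alleles and methylates the neighbouring nucleosomes, among others at lysine 4 of histone H3 (H3K4me3). SPO11 then breaks the DNA at such sites, and DMC1 coats the single strands that repair by recombination. Proximal chromosome 17 of the mouse carries the t complex, clusters of olfactory-type (vomeronasal) receptor and zinc finger genes, and *Prdm9* itself, a gene known for male sterility in crosses between mouse subspecies.

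PRDM9 peaks were sorted by the marks found with them. Class 1a peaks lie at the centre of a DMC1 peak of the same strain and in H3K4me3 specific to that strain. Classes 1b and 1c lie at DMC1 with common H3K4me3 or with none, and class 1d lies in strain-specific H3K4me3 without DMC1. Class 2A peaks lie in common H3K4me3 without DMC1, and class 2B peaks have neither mark. A DMC1 peak counted where its central 400 bp overlapped, and H3K4me3 where it covered at least 10% of the PRDM9 interval.

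The central 120 bp of 4 intervals without DMC1 are printed from the plus strand of mm9, which is a B6 sequence and can differ from that of RJ2, to show the ground on which the RJ2 and B6 peaks lie. Capitals mark the dinucleotide CG, the target of DNA methylation that is dense at many promoters.
RJ2 class 2B, widest of the run between *Vmn2r93* and *Vmn2r95*, chr17:18512701-18512820: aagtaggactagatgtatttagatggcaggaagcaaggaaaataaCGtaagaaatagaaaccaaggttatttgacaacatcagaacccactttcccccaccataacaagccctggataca
RJ2 class 2B, widest of the run at *Grm4*, chr17:27583623-27583742: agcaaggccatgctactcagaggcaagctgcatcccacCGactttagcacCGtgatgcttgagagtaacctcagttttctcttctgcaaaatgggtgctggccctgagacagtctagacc
RJ2 class 2A, widest of the region, chr17:27468433-27468552: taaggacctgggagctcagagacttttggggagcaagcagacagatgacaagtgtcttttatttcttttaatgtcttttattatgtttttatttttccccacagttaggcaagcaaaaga
B6 class 2A, widest of the region, at *Mapk14*, chr17:28828021-28828140: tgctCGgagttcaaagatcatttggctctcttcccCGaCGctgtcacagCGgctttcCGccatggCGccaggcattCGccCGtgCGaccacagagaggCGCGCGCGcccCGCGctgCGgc

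The stretches under the RJ2 peaks held 1, 2 and 0 CG, while the stretch under the B6 peak at the start of *Mapk14* held 16. The RJ2 peaks shown lie away from transcript starts, so these counts do not compare the strains. The following pair shows class 1a sites at which capitals mark the word of 8 letters most over-represented in class 1a peaks of the other chromosomes, AGGTCACA for RJ2 and GCAGCACC for B6, both read on either strand. Each is the first peak along the region that holds the word without a mismatch.
RJ2 class 1a, intron of *Agpat4*, chr17:12331632-12331751: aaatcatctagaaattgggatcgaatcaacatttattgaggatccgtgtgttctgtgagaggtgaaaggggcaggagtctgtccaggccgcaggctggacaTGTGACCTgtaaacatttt
B6 class 1a, intron of *Park2*, chr17:11468252-11468371: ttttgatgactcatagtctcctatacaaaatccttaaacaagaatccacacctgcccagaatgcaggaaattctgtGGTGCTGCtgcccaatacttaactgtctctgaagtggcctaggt

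Of the 112 RJ2 PRDM9 peaks of the region, 63 were class 2B (56.2%, Clopper-Pearson 95% interval 46.6 to 65.6%), and 35 were class 1a, 10 class 2A, 3 class 1d, 1 class 1b and 0 class 1c, which allows a share of class 1c of up to 3.24%. In the rest of chromosome 17, 85 of 310 peaks were class 2B (27.4%, interval 22.5 to 32.7%) and 183 were class 1a (59.0%). Class 2B took 24.2% of the whole RJ2 list. These are the values that chose the region. Among the 28 B6 peaks of the region, 14 were class 1a, 7 class 2A, 4 class 2B, 2 class 1c and 1 class 1d. The B6 share of class 2B was 14.3% (interval 4.03 to 32.7%) in the region and 10.9% (7 of 64) in the rest of the chromosome, beside 10% in the whole B6 list. That difference did not pass the test (Fisher's exact test, two-sided, odds ratio 1.35, interval 0.265 to 5.92, adjusted p = 0.863), and its interval is too wide to bound the share closely. The p-values given here are adjusted by Benjamini-Hochberg over the 13 tests made on the region.

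Seen per Mb, RJ2 PRDM9 peaks numbered 5.60 in the region and 4.29 in the rest of chromosome 17, a ratio of 1.31. B6 PRDM9 peaks numbered 1.40 and 0.886 per Mb, a ratio of 1.58. DMC1 peaks were slightly sparser in the region in both strains, at 5.40 against 6.01 per Mb in RJ2 and 5.15 against 5.71 per Mb in B6. RJ2 peaks made up 51.2% of the DMC1 peaks both in the region (108 of 211) and outside it (434 of 847), and no difference in the balance of the strains passed the test (Fisher's exact test, odds ratio 0.998, interval 0.730 to 1.37, adjusted p = 1). A PRDM9 density above that of the rest of the chromosome thus stood beside a lower DMC1 density in both strains. Without the 2 runs of RJ2 peaks described below, the PRDM9 ratio was 0.839 in RJ2 and 1.49 in B6. The first RJ2 peak inside lay at 10325804 to 10326147 (344 bp, class 1a) and the last one below at 9690623 to 9691684 (1062 bp, class 1a), while at the upper bound the last inside lay at 29994555 to 29995345 (791 bp, class 1a) and the next at 30025495 to 30025763 (269 bp, class 2B), both in introns of *Mdga1*.

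The RJ2 peaks without marks were concentrated in a few windows. Of the 20 windows of 1 Mb in the region, 11 had no class 2B peak and 4 had no RJ2 PRDM9 peak at all. The window from 18 to 19 Mb held 20 RJ2 peaks, all of class 2B, with 0 DMC1 peaks in either strain, 0 B6 PRDM9 peaks, 2 RJ2-specific and 7 common H3K4me3 intervals. Of 2589 windows of the genome, 3 had at least 20 class 2B peaks, and the highest had 23. The window from 27 to 28 Mb held 30 RJ2 peaks, of which 17 were class 2B, 8 class 2A and 5 class 1, beside 4 B6 PRDM9 peaks. The window from 29 to 30 Mb was the next with 16 RJ2 peaks, 8 of class 2B and 8 of class 1. Among the 67 windows of the genome with no DMC1 peak in either strain, that from 18 to 19 Mb was the only one with 10 or more RJ2 PRDM9 peaks.

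**Figure D1:**
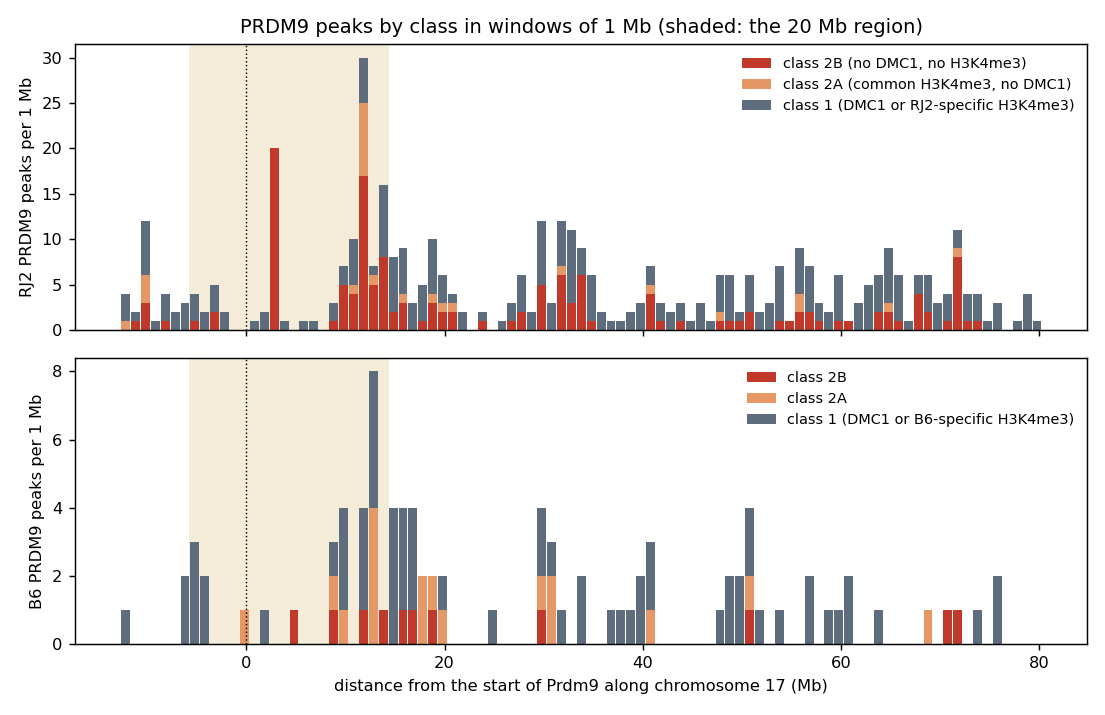
PRDM9 peaks per window of 1 Mb of chromosome 17, by class, for RJ2 (upper panel) and B6 (lower panel), against distance in Mb from the start of *Prdm9*, with the region shaded. The highest RJ2 columns hold 30 and 20 peaks, and 11 of the 20 windows in the region show no class 2B peak.

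The region is made of unlike stretches. From 10 to 18 Mb, which includes *Prdm9*, there were 2 RJ2 PRDM9 peaks per Mb, with 6.75 DMC1 peaks per Mb in RJ2 and 6.62 in B6. From 19 to 24 Mb, a stretch of vomeronasal receptor, formyl peptide receptor (*Fpr*) and zinc finger genes, there were 0.6 RJ2 PRDM9 peaks, 2.8 RJ2 DMC1 peaks and 11.2 common H3K4me3 intervals per Mb, while B6-specific H3K4me3 numbered 7.4 per Mb, close to its 7.20 over the region. From 24 to 30 Mb, the gene-rich end, there were 12.2 RJ2 and 3.33 B6 PRDM9 peaks, 6.67 RJ2 and 6.5 B6 DMC1 peaks and 48.3 common H3K4me3 intervals per Mb. The region held 18.2 starts of protein-coding genes per Mb against 10.1 in the rest of the chromosome, a GC content of 43.6% against 42.4%, and 16.8% against 12.4% of positions whose word of 31 bases occurs more than once on chromosome 17. Their part in the numbers of peaks was not tested.

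A pair of runs held many of the peaks. A run was taken, after the values were seen, as 10 or more RJ2 PRDM9 peaks with no gap above 30 kb. By that definition the genome had 2 runs, both in the region, and the B6 list had 0. With gaps of up to 10, 20, 50 and 100 kb the genome had 1, 2, 7 and 39 runs, of which 1, 2, 2 and 2 lay in the region. The runs took 41 of the 112 RJ2 peaks and 33 of the 63 class 2B peaks. Without them 71 peaks remained, of which 30 were class 2B (42.3%, interval 30.6 to 54.6%), and the density was 0.839 times that of the rest of the chromosome.

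The first run spanned 90.9 kb, from 18464682 to 18555608, between the genes of the vomeronasal (pheromone) receptors *Vmn2r93* and *Vmn2r95*, and no gene lay inside it. Its 20 peaks were all class 2B, were 479 to 4556 bp wide (median 987.5 bp) and covered 28.1% of the span. The widest, 4556 bp at 18510483 to 18515038, stood at place 362 of the RJ2 list, counted from its top. The RJ2 and B6 PRDM9 lists are not sorted by position, and the measure behind their order is not given in the sources used here. The run held 0 DMC1 peaks and 0 PRDM9 peaks of the other genotypes, and of H3K4me3 1 RJ2-specific interval of 639 bp. In this span 21.8% of positions had a repeated word of 31 bases, and the GC content was 40.2%.

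The second run spanned 190 kb, from 27428589 to 27618195, between *Lemd2*, which codes for a protein of the inner nuclear membrane, and *Hmga1*, which codes for a chromatin protein. It crossed the processed transcript *Gm10505* and entered *Grm4*, the gene of a metabotropic glutamate receptor. Its 21 peaks were 460 to 5811 bp wide (median 1624 bp) and covered 20% of the span. They comprised 13 of class 2B, 5 of class 2A and 3 of class 1. The widest RJ2 PRDM9 peak of the whole list was among them, a class 1a peak of 5811 bp at 27511567 to 27517377 and place 33. A class 2B peak of 4559 bp at 27581404 to 27585962, in an intron of *Grm4*, stood at place 193. Unlike the first run, the second held marks of both strains, namely 1 RJ2 and 3 B6 DMC1 peaks, 8 RJ2-specific, 5 B6-specific and 13 common H3K4me3 intervals, 1 *Prdm9* KO peak and 2 B6 PRDM9 peaks, both of class 1a in introns of *Grm4*. Repeated words of 31 bases took 4.31% of its positions and the GC content was 52.6%.

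**Figure D2:**
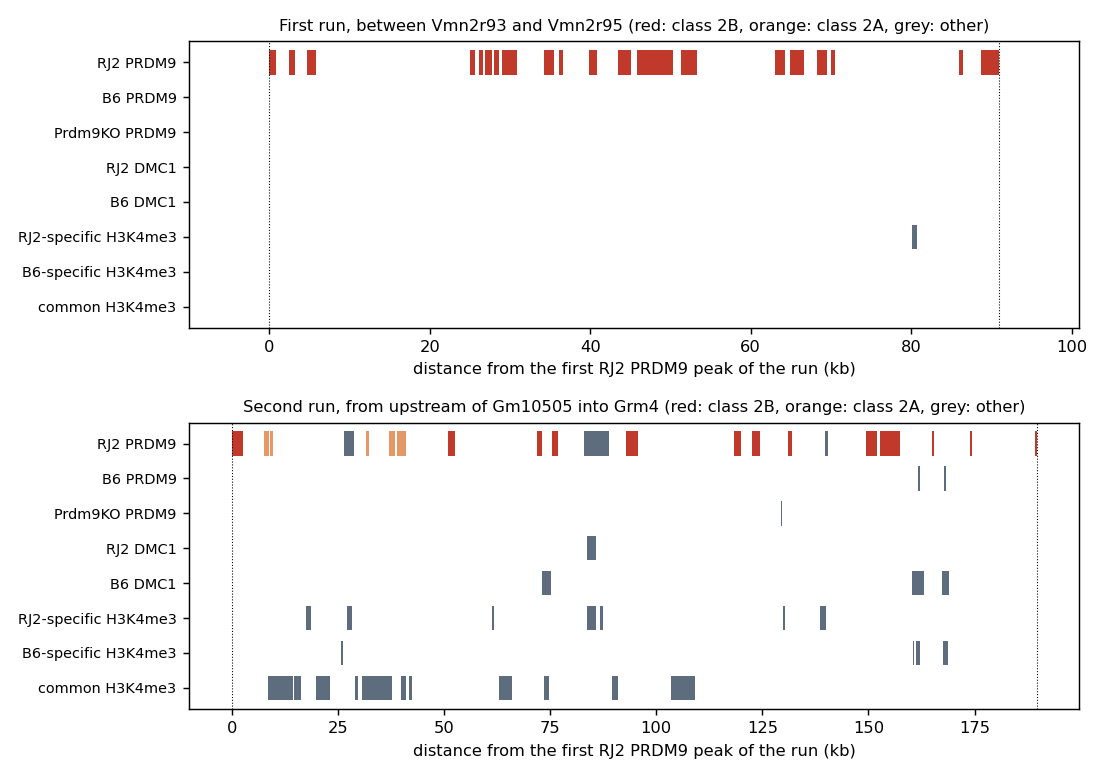
Intervals of the lists along the 2 runs of RJ2 PRDM9 peaks, one panel per run, with each list as a track, against distance in kb from the first RJ2 PRDM9 peak of the run. Red marks class 2B and orange class 2A. The run of 20 peaks has empty DMC1 tracks, and the run of 21 peaks has 1 RJ2 and 3 B6 DMC1 peaks.

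Wide peaks went with the runs. All 10 RJ2 PRDM9 peaks of the region above 2 kb lay in them, the rest of chromosome 17 had 0, and the whole list had 32. Of class 2B peaks above 2 kb, 7 of the 11 in the genome lay in the runs, and of those above 1 kb 20 of 95. The median width of class 2B peaks was 1220 bp in the runs, 474 bp in the region outside them, 447 bp in the rest of the chromosome and 471 bp in the whole list. The runs differed in their distance to other signal. The class 2B peaks of the first run lay 674 to 763 kb from the nearest RJ2 DMC1 peak (median 712 kb), and those of the second run 8.60 to 83.4 kb (median 46.7 kb), against medians of 44.8 kb for those of the region outside the runs and 33.6 kb in the rest of the chromosome.

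**Figure D3:**
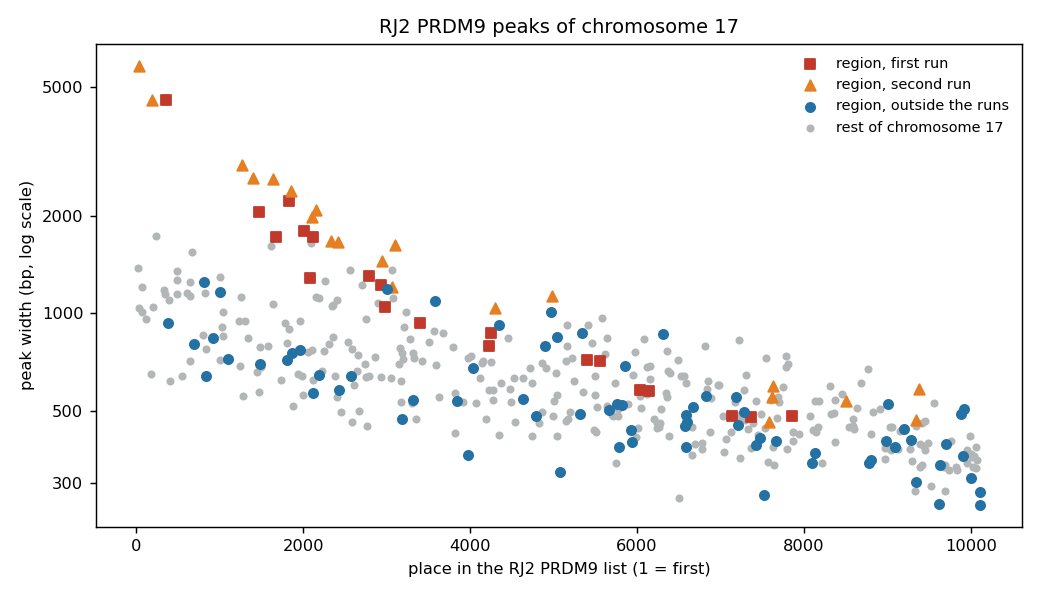
Width in bp of RJ2 PRDM9 peaks (log axis) against their place in the deposited list, with squares for the first run, triangles for the second, blue points for the other peaks of the region and grey points for the rest of chromosome 17. The 10 peaks of the region above 2 kb all belong to the runs.

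Outside the runs the 30 class 2B peaks were 256 to 1094 bp wide, stood at place 2191 or lower in the list, and were divided into 15 in introns and 15 between genes. Of them 27 lay between 24 and 30 Mb and 3 between 10 and 24 Mb. By number, class 1 peaks outside the runs were divided more evenly, with 20 from 24 to 30 Mb and 16 in the longer stretch from 10 to 24 Mb. Within 1 kb of a transcript start lay 4 of the 30 class 2B peaks (13.3%), beside 7 of 85 (8.24%) in the rest of the chromosome. Peaks at starts included one of 646 bp at *Fkbp5*, the gene of a co-chaperone of the glucocorticoid receptor, at 28654370 to 28655015, and one of 351 bp at *Mapk14*, the gene of the kinase p38 alpha, at 28829068 to 28829418.

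The RJ2 peaks highest in their list were of mixed class. After the 3 of the runs at places 33, 193 and 362 came a class 1a peak of 935 bp in an intron of *Anks1*, a gene of an adaptor protein, at place 382 (28106691 to 28107625) and a class 1a peak of 801 bp at place 693 between *1110021J02Rik* and *Mdga1* (29881696 to 29882496). The widest peaks of the other RJ2 classes were a class 1d peak of 2391 bp (27454975 to 27457365) and a class 2A peak of 2083 bp (27467452 to 27469534), both in the second run, and the class 1b peak of 544 bp in an exon of *Snrpc* (27977497 to 27978040), which codes for a protein of the U1 splicing particle.

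The B6 peaks highest in their list were all class 2A and lay at gene starts. They were at place 45 at the start of *1600012H06Rik* (15079892 to 15080478, 587 bp), at place 63 at *Mapk14* (28827719 to 28828443, 725 bp) and at place 344 at *Rpl10a*, a ribosomal protein gene (28465184 to 28465660, 477 bp). Of the 7 B6 class 2A peaks of the region, 6 lay within 1 kb of a start, the others being at *Mlst8* (a subunit of the mTOR complexes), *Spsb3* and *Taf11* (a subunit of the transcription factor TFIID). Of the 10 RJ2 class 2A peaks 2 did so, at *Phf1*, a gene of a Polycomb-associated protein, and at *Rps10*, a ribosomal protein gene. In the rest of the chromosome 10 of 15 RJ2 and 10 of 10 B6 class 2A peaks lay at a start. The median ratio of observed to expected CG in the central 200 bp was 0.174 for RJ2 class 2A peaks and 0.945 for B6 class 2A peaks of the region, as the printed sequences show for the widest of each. In the rest of the chromosome it was 0.574 for RJ2 and 0.864 for B6 class 2A peaks. Of the 10 RJ2 class 2A peaks 5 belonged to the second run.

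The remaining B6 peaks included the widest of class 1a, 926 bp in an exon of *Abca17*, a lipid transporter gene (24425892 to 24426817), of class 1c, 540 bp near *Park2*, a ubiquitin ligase gene (11171851 to 11172390), of class 1d, 712 bp in an intron of *Ggnbp1*, whose protein binds gametogenetin (27141648 to 27142359), and of class 2B, 575 bp near *Hmga1* (27671626 to 27672200). No RJ2 PRDM9 peak overlapped a B6 PRDM9 peak, in the region or elsewhere, because the authors removed peaks shared by the strains. At *Mapk14* and *Grm4* both lists had peaks side by side, and at the start of *Mapk14* the RJ2 peak began at a higher coordinate than the end of the B6 peak.

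Both knockouts gave few peaks in the region. *Prdm9* KO had 12 peaks there and 48 in the rest of chromosome 17, against 28 and 64 in B6 (Fisher's exact test, odds ratio 0.573, interval 0.240 to 1.31, adjusted p = 0.306). Of RJ2 peaks 3 of 112 overlapped a *Prdm9* KO peak (2.68%, interval 0.556 to 7.63%), beside 2.49% of the whole list. Of B6 peaks 0 of 28 did, beside 2 of 2601 (0.0769%) in the whole B6 list, so the 0 is not particular to the region. The methods describe the removal of signals seen in *Prdm9* KO, yet the deposited RJ2 list as a whole still held 252 such overlaps among 10121 peaks. The widest of the 3 was a class 2A peak of 677 bp in an intron of *Pacsin1*, a gene of an endocytosis protein (27841383 to 27842059), and none lay in the runs. *Spo11* KO had 6 peaks in the region and 25 in the rest of chromosome 17. Of the B6 peaks 4 of 28 (14.3%, interval 4.03 to 32.7%) overlapped a *Spo11* KO peak in the region and 20 of 64 (31.2%, interval 20.2 to 44.1%) in the rest of the chromosome, beside 35.5% of the whole list, a difference that did not pass Fisher's exact test (odds ratio 0.370, interval 0.0825 to 1.29, adjusted p = 0.265).

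The balance of strain-specific H3K4me3 differed in the region. RJ2-specific intervals were 217 of the 361 specific intervals (60.1%) in the region and 787 of 1095 (71.9%) in the rest of chromosome 17 (Fisher's exact test, odds ratio 0.590, interval 0.457 to 0.763, adjusted p = 5.9e-04). The density of RJ2-specific intervals was about equal inside and outside, at 10.8 and 10.9 per Mb, while B6-specific intervals numbered 7.20 per Mb in the region and 4.26 per Mb outside. The share of specific intervals among all H3K4me3 intervals was 43.7% in the region and 44.0% outside (Fisher's exact test, odds ratio 0.986, interval 0.838 to 1.16, adjusted p = 0.944). RJ2-specific intervals were narrower in the region, at a median of 578 bp against 782 bp outside, whereas B6-specific intervals had medians of 680 and 708 bp.

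The specific H3K4me3 of the region held DMC1 less often in both strains. RJ2 DMC1 lay in 81 of 217 RJ2-specific intervals (37.3%) in the region and in 371 of 787 (47.1%) outside, beside 51.9% of the whole list (Fisher's exact test, odds ratio 0.668, interval 0.484 to 0.919, adjusted p = 0.0285). B6 DMC1 lay in 46 of 144 B6-specific intervals (31.9%) in the region and in 155 of 308 (50.3%) outside, beside 55.9% of the whole list (Fisher's exact test, odds ratio 0.464, interval 0.298 to 0.715, adjusted p = 0.0016). The difference between the strains in this effect did not pass the test (likelihood ratio chi-square test, ratio of odds ratios 1.44, adjusted p = 0.306). Without the runs the RJ2 odds ratio was 0.701 and no longer passed Fisher's exact test (adjusted p = 0.0735). In the alternative with 1 of every 2 DMC1 peaks, the wider ones, RJ2 also lost the call by Fisher's exact test (0.768, adjusted p = 0.630), while B6 kept it (0.422, adjusted p = 0.0018). With 30 to 50 Mb as the reference both lost the call by Fisher's exact test, at 0.793 in RJ2 (adjusted p = 0.414) and 0.562 in B6 (adjusted p = 0.125).

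The B6-specific intervals without DMC1 numbered 98 in the region. From 19 to 24 Mb, 8.11% of the 37 B6-specific intervals held DMC1, in a stretch with 2.2 B6 DMC1 peaks per Mb. From 10 to 18 Mb 37.5% of 64 did, and from 24 to 30 Mb 44.2% of 43 did, where B6 DMC1 peaks numbered 6.62 and 6.5 per Mb. Within 1 kb of a transcript start lay 22 of the 98 (22.4%, interval 14.6 to 32.0%), beside 22 of 153 (14.4%, interval 9.24 to 21.0%) in the rest of the chromosome. For RJ2-specific intervals without DMC1 the counts at starts were 23 of 136 (16.9%) and 51 of 416 (12.3%). Intervals without DMC1 were narrower than those with it, with medians of 478 and 913 bp in RJ2 and 530 and 972 bp in B6, in the region.

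DMC1 peaks of RJ2 lay less often in H3K4me3 specific to RJ2. Of 108 RJ2 DMC1 peaks in the region 76 did so (70.4%, interval 60.8 to 78.8%), against 367 of 434 (84.6%, interval 80.8 to 87.8%) outside and 80.9% of the whole list (Fisher's exact test, odds ratio 0.434, interval 0.260 to 0.734, adjusted p = 0.0047). For B6 the counts were 44 of 103 (42.7%) in the region and 152 of 413 (36.8%) outside, beside 40.4% of the whole list (Fisher's exact test, odds ratio 1.28, interval 0.804 to 2.03, adjusted p = 0.399). The effect of the region differed between the strains (likelihood ratio chi-square test, ratio of odds ratios RJ2 over B6 0.339, adjusted p = 0.0047). In the stricter alternative, which kept 1 of every 2 peaks (those at the top of the RJ2 and B6 PRDM9 lists and the wider ones of the DMC1 lists), neither call held, at 0.967 for RJ2 by Fisher's exact test and 0.895 for the difference by the chi-square test (adjusted p = 1 for each), and with 30 to 50 Mb as the reference they were 0.431 (adjusted p = 0.0704) and 0.659 (adjusted p = 0.454). The share in RJ2 was 64.7% (44 of 68) from 10 to 24 Mb and 80% (32 of 40) from 24 to 30 Mb, and in B6 it was 40.6% (26 of 64) and 46.2% (18 of 39).

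DMC1 peaks with no H3K4me3 of any list were 29 of 108 in RJ2 (26.9%, interval 18.8 to 36.2%) against 12.2% in the rest of the chromosome, and 53 of 103 in B6 (51.5%, interval 41.4 to 61.4%) against 58.6%. In the whole lists the shares were 15.8% in RJ2 and 55.8% in B6. None of the 29 held an RJ2 PRDM9 peak, beside 191 of 2398 such peaks in the whole RJ2 list. Of the 53, 2 held a B6 PRDM9 peak, beside 135 of 8250 in the whole B6 list. RJ2 PRDM9 lay at 36 of 108 RJ2 DMC1 peaks in the region (33.3%, interval 24.6 to 43.1%) and at 195 of 434 outside (44.9%), with 44.9% also in the whole list, which is given as a description. B6 PRDM9 lay at 16 of 103 B6 DMC1 peaks (15.5%) in the region and at 47 of 413 (11.4%) outside, beside 12.6% of the whole list (Fisher's exact test, odds ratio 1.43, interval 0.722 to 2.72, adjusted p = 0.351). The widest B6 DMC1 peak of the region, 2950 bp, lay at 25060443 to 25063392 in *Mapk8ip3*, which codes for a scaffold of the JNK pathway.

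**Figure D4:**
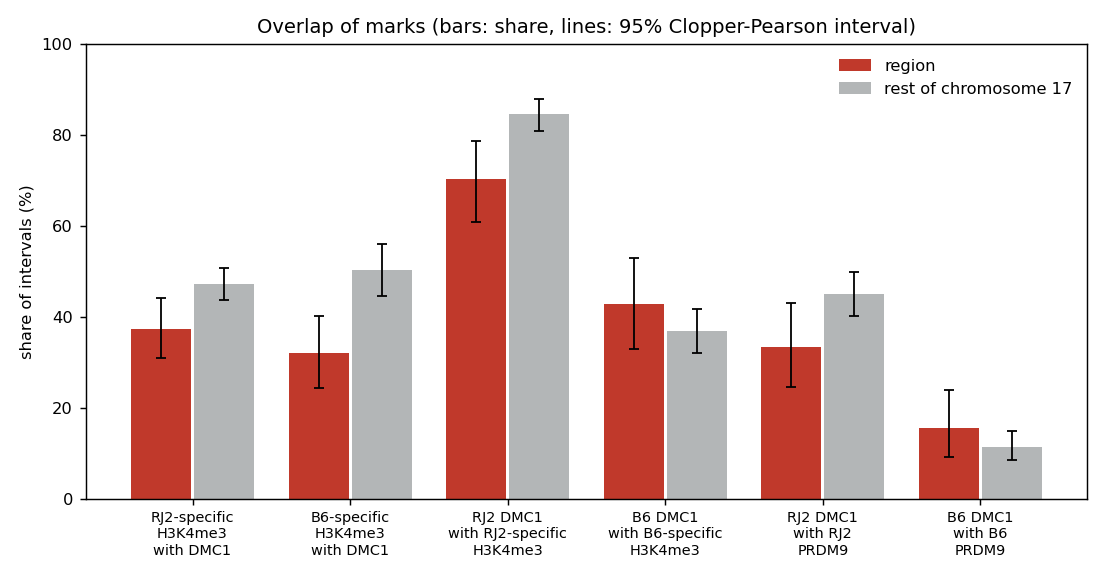
Shares in percent, with Clopper-Pearson 95% intervals as lines, of intervals that hold another mark, in the region (red) and in the rest of chromosome 17 (grey). RJ2 DMC1 peaks lay in RJ2-specific H3K4me3 in 70.4% of cases in the region and 84.6% outside, and B6 DMC1 peaks in B6-specific H3K4me3 in 42.7% and 36.8%.

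At *Prdm9* itself (ENSMUSG00000051977.7, 15680043 to 15701318, minus strand) no list of PRDM9 held a peak within 100 kb of the gene. RJ2 had 4 DMC1 peaks in that space and B6 had 0. One of 1544 bp lay between *Fam120b* and *Psmb1* (15598032 to 15599575) and overlapped an RJ2-specific H3K4me3 interval of 260 bp. The other 3 lay at the gene. One of 3476 bp (15679107 to 15682582) covered the exon at its 3′ end (15680043 to 15682324), one of 1348 bp lay in an intron (15689120 to 15690467), and one of 1478 bp (15701489 to 15702966) lay just upstream of the start and overlapped a common H3K4me3 interval at 15700732 to 15702334. None of the 3 overlapped RJ2-specific H3K4me3. The peak of 3476 bp was the widest RJ2 DMC1 peak of chromosome 17, and 25 in the genome were wider. That exon codes for the zinc fingers, a repeated sequence in which the alleles differ, and the reads were mapped to the B6 reference. Whether that bears on the peak was not tested.

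The nearest PRDM9 peaks were not close to the gene. From 10 to 18 Mb there were 2 RJ2 and 0.875 B6 PRDM9 peaks per Mb, a density at which 0 within 100 kb is not unusual. A peak of *Prdm9* KO lay 233 kb away. The nearest of RJ2, a class 1a peak of 385 bp at 16127229 to 16127613, was 426 kb away, and the nearest of B6, the class 2A peak at *1600012H06Rik*, 600 kb away. Specific H3K4me3 within 100 kb came to 4 RJ2 and 1 B6 intervals. Apart from the 260 bp interval they were 423 bp wide in an intron of *Tbp*, the gene of the TATA-binding protein (15639492 to 15639914), 434 bp (15777734 to 15778167) and 520 bp (15778416 to 15778935) between *Prdm9* and *Chd1*, and, for B6, 386 bp also between *Prdm9* and *Chd1* (15771091 to 15771476). None of these 4 held DMC1.

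Lists of genes known in the region were then checked for PRDM9 peaks within 1 kb of a start, which 12 (2.53%) of all 474 genes of the region had in RJ2 and 10 (2.11%) in B6. The 11 genes of the t complex and fertility list that lie in the region, the 10 of the imprinted *Igf2r* cluster, the 52 vomeronasal and formyl peptide receptor genes, the 24 zinc finger genes and the 9 genes near *Prdm9* had 0 in either strain. Of 20 signalling and growth genes 2 had one in RJ2 (*Fkbp5* and *Mapk14*) and 1 in B6 (*Mapk14*). Peaks did lie in gene bodies, among them 7 RJ2 and 2 B6 peaks in *Grm4*.

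The word AGGTCACA was found, on the mm9 sequence, within the central 200 bp of 5.90% of 6173 class 1a RJ2 peaks of the other chromosomes, against 1.23% of the same peaks moved by 10 kb. With at most 1 mismatch it was found in 15 of 35 class 1a RJ2 peaks of the region (42.9%, interval 26.3 to 60.6%, moved peaks 20%) and in 64 of 183 in the rest of chromosome 17 (35%, moved peaks 23.0%). In class 2B peaks of the region it was found in 14 of 63 (22.2%, interval 12.7 to 34.5%, moved peaks 28.6%), and in the runs in 7 of 33 (21.2%, moved peaks 33.3%). In class 2B peaks of the rest of the chromosome it was found in 17 of 85 (20%, moved peaks 15.3%). Without a mismatch it was found in 4 of the 35 class 1a and 3 of the 63 class 2B peaks of the region, and in 1 moved peak of each class. These differences from moved peaks were not tested. The B6 word GCAGCACC was found in 10.7% of 1593 class 1a B6 peaks of the other chromosomes and in 0.502% of moved ones. With at most 1 mismatch it was found in 7 of 14 class 1a B6 peaks of the region and in 7 of them when moved (50% each), and in 14 of 43 (32.6%, moved peaks 23.3%) in the rest of chromosome 17. In class 2B B6 peaks of the region GCAGCACC was found, with at most 1 mismatch, in 2 of 4 (moved peaks 0%). In those of the rest of the chromosome it was found in 5 of 7 (moved peaks 0%). The word GAAACACA was found in 11.2% of 249 class 2B B6 peaks of the other chromosomes and in 0.803% of moved ones. On chromosome 17, with at most 1 mismatch, it was found in 2 of 4 class 2B B6 peaks of the region (moved peaks 25%). In the rest of the chromosome it was found in 1 of 7 (moved peaks 14.3%). The shares on the other chromosomes are the values by which all these words were picked, so they only describe that choice. These words can overlap neighbouring motifs and stand for no more than their letters.

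The stretch from 10 to 30 Mb of the other 19 chromosomes gave a view of what lies at the same distance from the centromere. There RJ2 class 2B peaks numbered 2 to 26 (median 10), against 63 on chromosome 17. Their share of RJ2 peaks was 3.51 to 38.8%, against 56.2%. The region was chosen by these values and the other stretches were not, so this comparison only describes the choice. B6-specific H3K4me3 intervals numbered 45 to 138 (median 65), against 144, and those without DMC1 16 to 51 (median 27), against 98. The share of specific intervals with DMC1 was 39.7 to 68.4% in RJ2 and 37.5 to 73.8% in B6, against 37.3% and 31.9% on chromosome 17. DMC1 numbers were ordinary, with 71 to 150 in RJ2 and 50 to 158 in B6, against 108 and 103. Common H3K4me3 was high, with 131 to 455 elsewhere against 466. The chromosome with the lowest B6 share, and with the highest RJ2 class 2B number and share of the 19, was chromosome 7.

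**Figure D5:**
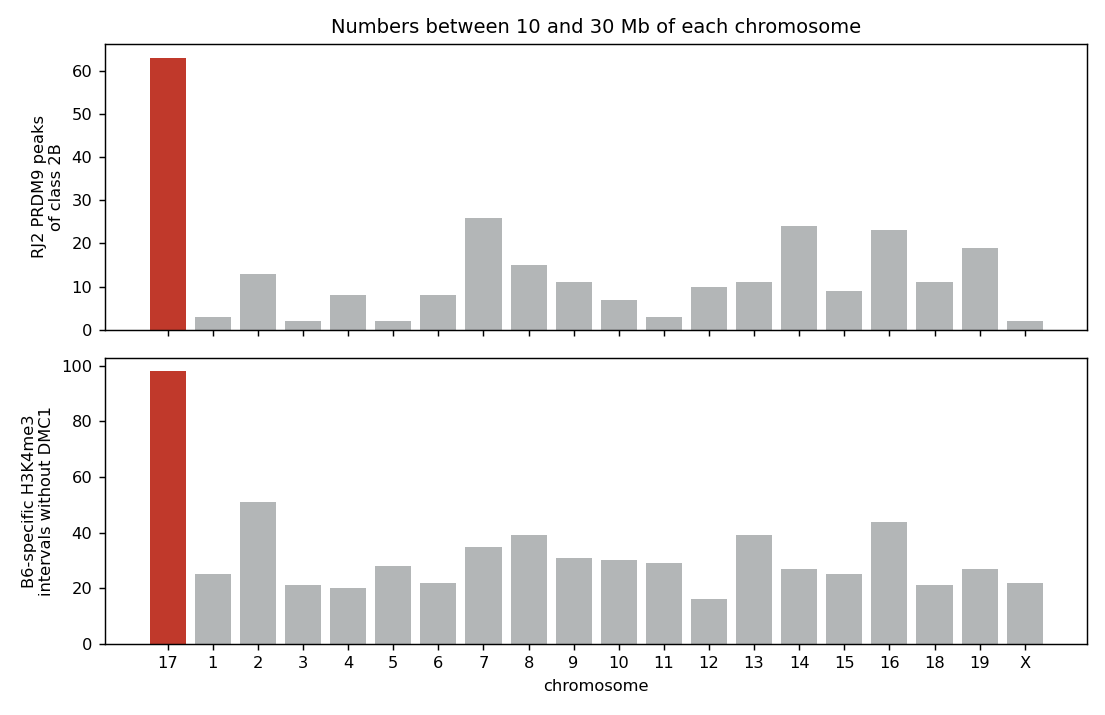
Numbers of RJ2 class 2B peaks (upper panel) and of B6-specific H3K4me3 intervals without DMC1 (lower panel) from 10 to 30 Mb on each of 20 chromosomes, with chromosome 17 in red. Chromosome 17 has 63 RJ2 class 2B peaks and 98 B6-specific H3K4me3 intervals without DMC1, above the highest of the others, 26 and 51. The region was chosen by its RJ2 class 2B peaks, so the upper panel only describes that choice.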

How the data were processed

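The lists came from ChIP-seq of mouse testis. Of 32 libraries 22 lie behind the 9 lists, and 10 of H3K36me3 were not analysed here. The authors mapped reads to mm9, called peaks with MACS and pooled replicates. PRDM9 and DMC1 peaks had to pass an irreproducible discovery rate between replicates, except for the single *Prdm9* KO library, for which a relaxed p-value was used. In all ChIP experiments they kept uniquely placed, non-duplicated reads with at most 1 mismatch. H3K4me3 peaks were those shared by the calls from several read sets, among them unique reads without any mismatch. How far mismatches between RJ2 and the B6 reference removed RJ2 intervals in the region was not tested. Their methods also describe discarding PRDM9 peaks that both strains had or that *Prdm9* KO showed. The deposited unit is another one than a count, namely the start and end of each interval in bp, without a score.

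The members and the gene and word lists were chosen with earlier results of these data known. Classes, shares with Clopper-Pearson 95% intervals, 11 two-sided Fisher's exact tests and 2 likelihood ratio chi-square tests of logistic models (strain by region) were computed, with Benjamini-Hochberg adjustment over the 13 and a threshold of 0.05. Peaks are the units and neighbouring peaks are not independent. Genes are those of GENCODE vM1 (474 in the region, 363 protein-coding), and a start means within 1 kb. Words were learned on the other chromosomes. Named sites are the widest of each class, the first 5 RJ2 and 3 B6 peaks in list order, intervals within 100 kb of *Prdm9*, the 3 fullest windows and peaks of the lists at starts. The runs and their contents were chosen after the values were seen. On simulated data covered lengths matched in 500 of 500 cases, classes in 600 of 600, and the interaction was called in 24 of 400 sets without one and in 399 of 400 with a strong one. The tools were Python 3.11.15 with scipy 1.17.1, numpy 2.4.6, statsmodels 0.14.6, pandas 2.3.3 and matplotlib 3.10.9.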

Additional observations from a re-analysis of the deposited data

Results flagged for a closer look

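The balance of strain-specific H3K4me3 differed between the region and the rest of chromosome 17. The odds of an RJ2-specific against a B6-specific interval in the region were 0.590 times those outside (interval 0.457 to 0.763), with 60.1% and 71.9% RJ2-specific.

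The effect of the region on the share of DMC1 peaks in strain-specific H3K4me3 differed between RJ2 and B6, by a test of the difference itself, with a ratio of odds ratios of 0.339. The share was 70.4% in the region and 84.6% outside in RJ2, and 42.7% and 36.8% in B6. The RJ2 lists compared here take part in defining the classes by which the region was chosen. The call was lost with the stricter peaks (0.895), against 30 to 50 Mb (0.659) and against the other chromosomes (0.511).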

How the results depend on the processing

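Other overlaps, peak sets, bounds of the region, references, window sizes, promoter distances and search lengths were tried. Under them 178 values kept their direction and call or size, among them values that a setting could not change. Of the others 9 were weaker, 4 stronger and 9 moved, and 13 odds ratios changed sides of 1, with 0 of these past the threshold in either setting. These 13 were RJ2 against B6 DMC1 peaks (1.04 for 12 to 28 Mb, 1.09 for 5 to 35 Mb, 1.02 against the other chromosomes and 1.02 without the runs), specific against common H3K4me3 (1.01 for 5 to 35 Mb and 1.20 against 30 to 50 Mb), B6 DMC1 with H3K4me3 (0.829 for 12 to 28 Mb and 0.654 against 30 to 50 Mb), B6 DMC1 with PRDM9 (0.869 with the stricter peaks, 0.733 for 12 to 28 Mb and 0.584 against 30 to 50 Mb) and *Prdm9* KO against B6 peaks (1.01 with the stricter peaks and 1.25 for 12 to 28 Mb). The odds ratio of RJ2-specific against B6-specific H3K4me3 kept its call under each. Only the settings that changed the region, the reference or the runs could move it. It was 0.644 for 12 to 28 Mb and 0.613 for 5 to 35 Mb. Against 30 to 50 Mb it was 0.550, against the other chromosomes 0.675 and without the runs 0.586. With the stricter peaks, 1 of every 2 PRDM9 and DMC1 peaks (the top of the RJ2 and B6 PRDM9 lists, the wider of the DMC1 and knockout lists), the RJ2-specific H3K4me3 with DMC1 gave an odds ratio of 0.768 by Fisher's exact test (adjusted p = 0.630), RJ2 DMC1 with H3K4me3 0.967 and its difference between strains 0.895, while RJ2 class 2B fell to 30 peaks with a median width of 1298 bp and B6 class 2B to 0 peaks (0%), for which no odds ratio could be given. With 5 to 35 Mb as the region, B6 DMC1 with H3K4me3 (1.79, adjusted p = 0.0072), B6 DMC1 with PRDM9 (1.90, adjusted p = 0.0333) and *Prdm9* KO against B6 peaks (0.398, adjusted p = 0.0209) passed the threshold of Fisher's exact test, the RJ2 class 2B share was 45.0% and B6 class 2B numbered 7. Against 30 to 50 Mb the odds ratios of RJ2-specific (0.793) and B6-specific H3K4me3 with DMC1 (0.562), of RJ2 DMC1 with H3K4me3 (0.431) and of its difference between strains (0.659) lost the call. Against the other chromosomes that difference was 0.511 by the chi-square test (adjusted p = 0.0509), and B6 peaks found in *Spo11* KO passed Fisher's exact test at 0.299 (adjusted p = 0.0439). Without the 2 runs, an alternative chosen after seeing the data, RJ2-specific H3K4me3 with DMC1 was 0.701 by Fisher's exact test (adjusted p = 0.0735) and RJ2 class 2B came to 30 peaks (42.3%). In windows of 2 Mb the highest density of class 2B was 10.5 per Mb, against 20 in windows of 1 Mb. Fewer peaks or a shorter reference enter several of these tests, and beyond that the cause was not tested. No paired analysis was possible because the lists are pooled and hold no value per replicate, and for the same reason no replicate could be left out. The lists give no depth, so which sites were missed for want of reads cannot be said.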
